A study of Mus musculus with 8 samples.

Results

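The 9 genes described here bind retinoids, make or remove retinoic acid, or are its receptors: Crabp1, Crabp2, Stra6, Aldh1a1, Aldh1a3, Dhrs3, Rara, Rarb and Rarg. They were chosen by name from the pathway, with results of these data already known, so their differences between control and SOX4KO organoids are given as a description. They are 9 of 38293 gene identifiers counted in bulk RNA, and 8 of the 9 had at least 1 read in at least 1 bulk line. The organoids were grown from mammary tumors of mice that carry 3 engineered alleles, MMTV-PyMT, MMTV-Cre and Ecadherin-mCFP, and CRISPR/Cas9 was used to make both control and SOX4KO lines. The MMTV promoter drives PyMT and Cre in the mammary epithelium, and controls and SOX4KO lines share all 3 alleles. Each line is a clone, so a replicate in bulk is a clone and not an animal. Bulk RNA came from WT1 and WT3 as controls and from H7, M4 and H4 as SOX4KO lines, and single cells came from GR17 as control and from GR18 and GR19 as SOX4KO. All organoids had been grown for 4 days in medium with B27 and FGF2. B27 is sold with and without vitamin A, and which form was used is not given in the sources used here.

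Retinol enters cells with the help of the receptor Stra6 and is oxidized to retinaldehyde and then, by aldehyde dehydrogenases such as Aldh1a1 and Aldh1a3, to retinoic acid. Dhrs3 works against this by reducing retinaldehyde back to retinol, and enzymes of the Cyp26 family break retinoic acid down. Crabp1 and Crabp2 carry retinoic acid in the cytoplasm, Crabp2 handing it to receptors in the nucleus. The receptors Rara, Rarb and Rarg bind DNA as pairs with a retinoid X receptor and switch on target genes, of which Rarb, Dhrs3 and Cyp26a1 are well known ones. In the mammary gland the pathway is known for limiting growth and promoting differentiation of the epithelium.

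Receptor pairs classically bind a direct repeat of a short core, with 5 bases between its copies. The Rarb promoter is shown because Rarb reads were absent from both control lines and its window held this arrangement. The Cyp26a1 promoter is shown because its window was the only one of the other pathway genes with the same arrangement. Both stretches are from RefSeq (GRCm38.p6), written 5′ to 3′ on the strand of the gene, with the copies of the core in capitals. The Rarb stretch lies at chr14:16575489-16575553 on the minus strand, and its repeat runs from 53 to 37 bases before the start of transcription. The Cyp26a1 stretch lies at chr19:37697752-37697807 on the plus strand, and its repeat reads on the opposite strand, from 32 to 16 bases before the start.
Rarb: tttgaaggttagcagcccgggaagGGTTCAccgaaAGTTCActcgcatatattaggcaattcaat
Cyp26a1: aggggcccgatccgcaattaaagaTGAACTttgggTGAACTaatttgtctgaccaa

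The search covered 250 bases before to 50 bases after each annotated start, on both strands, for the consensus core AGGTCA, its variant AGTTCA (the second copy in Rarb), its variant GGTTCA (the first copy in Rarb) and the further variant GGGTCA, in any pair with 5 bases between them. Of 32851 windows of this length in the table, 32 held such a repeat (0.0974%). The table held 17 windows for 7 of the 9 genes (none for Crabp2 and Aldh1a3), and the Rarb window was the only one of the 17 with the repeat. Repeats with 1 or 2 bases between the copies were also searched. They were in 73 (0.222%) and 88 (0.268%) of all windows, and in none of the 17. The letters AACAAAG or AACAATG, which are cores that SOX proteins are known to bind, were in 3074 of all windows (9.36%), including a window of Rara and the window of Rarb. A match describes letters only and was not tested as a binding site.

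The bulk libraries held 3050320 to 4678500 reads on genes, and the 3 single-cell libraries held 7714119 to 8296953 UMIs (counted RNA molecules) in 362 to 369 wells with at least 1000 UMIs. Sox4 itself was still transcribed: its level was 295 and 374 CPM (reads scaled to the size of the library) in WT1 and WT3, and 199, 179 and 299 CPM in H7, M4 and H4, so the groups overlapped, and RNA counts do not show a frameshift. The luminal keratins Krt8 and Krt18 and the basal keratins Krt5 and Krt14 were present in every line, while contractile genes of basal cells were uneven, with Acta2, Tagln, Cnn1 and Myh11 at 0 to 5 reads in any line, Oxtr at 15 to 83 and Mylk at 386 to 738. Of the 4 adipocyte markers none had a read, and endothelial markers summed to at most 2.52 CPM in any line. The labels give each line as its own clone, but do not say which bulk line, if any, matches a single-cell library.

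In bulk RNA, Dhrs3 was about 2 times higher and Rara about 0.59 times as high in the SOX4KO lines as in controls, Rarb reads were found only in SOX4KO lines, Rarg was slightly higher, and Crabp2 varied more among SOX4KO lines than between the groups. The other 4 genes were at or near the limit of detection. Fold changes are SOX4KO over control from the edgeR quasi-likelihood fit, with standard errors (SE), and levels are CPM scaled with TMM factors. Of the 5 genes with enough reads to be fitted, 1 was called higher and 1 lower at an adjusted p under 0.1, where 6.27% of 11682 genes were called (4.1% higher and 2.17% lower); since the genes were chosen with this contrast known, nothing is read from that count. The groups of lines did not overlap for 4 of the 5 (36.9% of all genes tested), among them Rarb, which passed the filter on low counts through the SOX4KO lines alone, and nothing is read from this count either. In bulk RNA, fewer cells of a type and less RNA per cell cannot be told apart.

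**Figure D1:**
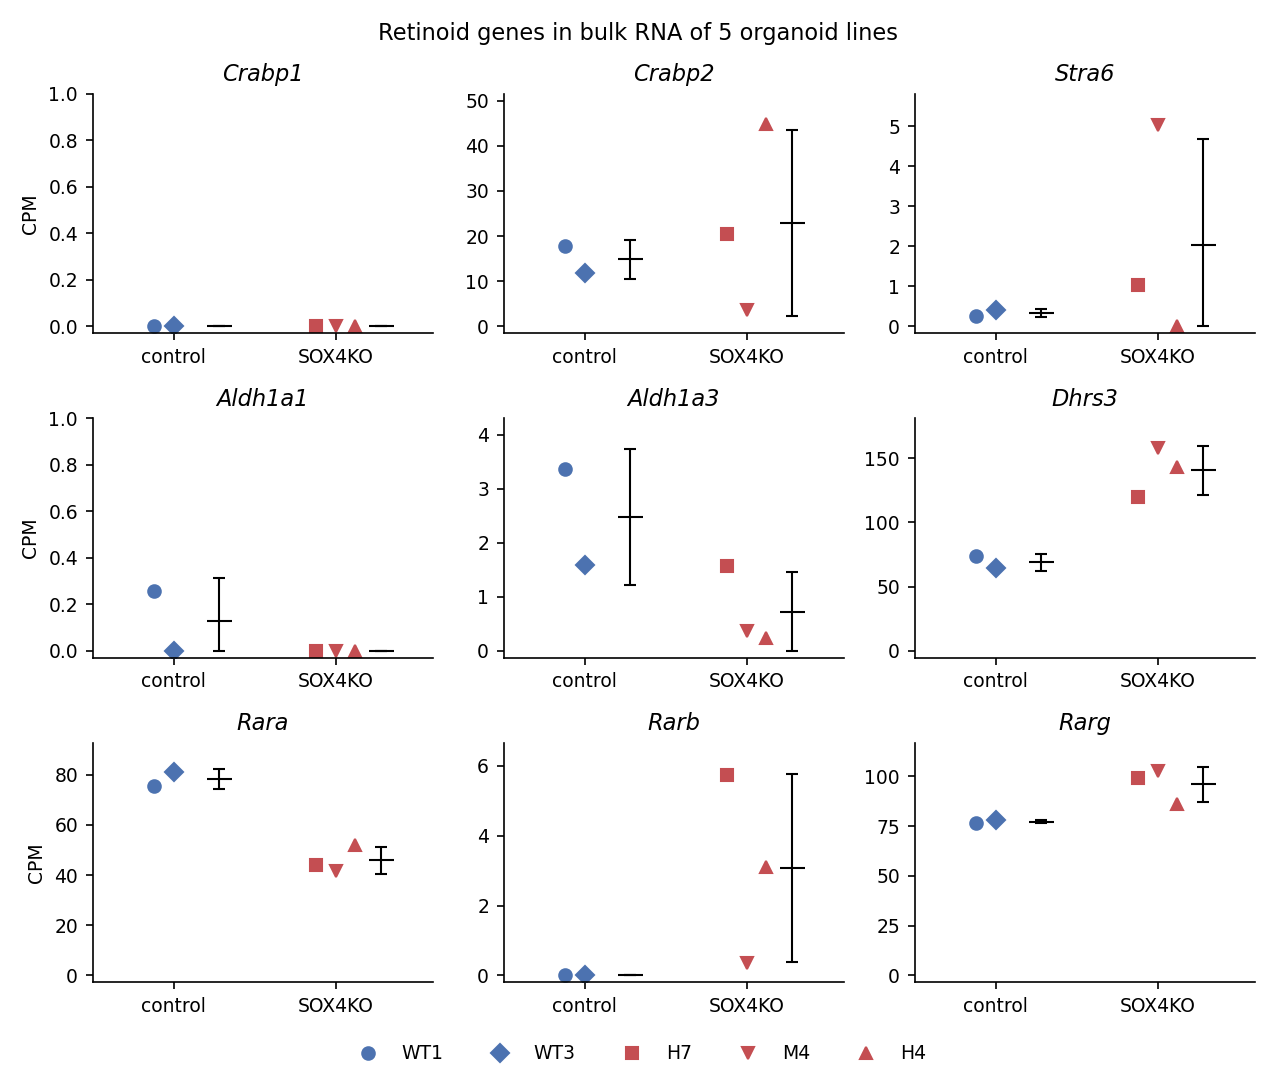
CPM (y axis) of the 9 retinoid genes in each bulk line, with the 2 control lines in blue and the 3 SOX4KO lines in red. The black line and bar beside the points are the mean and 1 SD of the group, with the bar stopped at 0; Dhrs3 sits at 64.3 to 73.5 CPM in controls and at 120 to 158 CPM in SOX4KO lines, and Rara at 75.3 to 81.1 CPM against 41.8 to 52.0 CPM.

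Among the binding proteins, Crabp1 (chr9:54764748-54773110) had no read in any of the 5 lines and no UMI in any single-cell library, which allows up to 0.597 to 1.08 CPM per bulk line. Crabp2 (chr3:87948666-87953376) had 69 and 59 reads in WT1 and WT3 and 78, 10 and 187 reads in H7, M4 and H4. That is 17.9 and 11.7 CPM against 20.4, 3.6 and 44.8 CPM. H4 was the highest line and M4 the lowest, both SOX4KO, with H7 near the controls, so the groups overlapped. The mean was 14.8 ± 4.3 CPM (SD, n = 2) in controls and 22.9 ± 20.7 CPM (SD, n = 3) in SOX4KO lines, a log2 fold change of 0.67 (SE 0.73) that became -0.24 without H4. The summed luminal markers were also highest in H4 (10882 CPM, against 5495 to 5910 CPM in the other lines). Most of this sum was Lcn2 (5891 CPM) and Csn3 (2287 CPM). Krt8 (381 CPM), Krt18 (493 CPM) and Epcam (685 CPM) were lower in H4 than in both control lines. Cd14 (186 CPM) and Aldoc (378 CPM) were higher in H4 than in both. The summed basal markers were highest in M4 (6962 CPM, against 1309 to 4896 CPM), mostly from Sparc (5342 CPM). Whether these sums go with Crabp2 was not tested.

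The retinol receptor Stra6 (chr9:58063788-58153996) had 1 and 2 reads in WT1 and WT3 and 4, 14 and 0 in the SOX4KO lines. M4, with 14 reads (5.04 CPM), was the highest line, and H4 had none. Aldh1a1 (chr19:20492715-20643465), an enzyme that makes retinoic acid and a common marker of stem-like breast cells, had a single read, in WT1. Aldh1a3 (chr7:66390890-66427517), the other enzyme of that kind among the 9, had 13 and 8 reads in controls and 6, 1 and 1 reads in H7, M4 and H4. Its control lines (3.37 and 1.59 CPM) were above the SOX4KO lines (1.57, 0.360 and 0.239 CPM), with WT3 and H7 almost level. Stra6, Aldh1a1 and Aldh1a3 had too few reads to be fitted. Another aldehyde dehydrogenase that makes retinoic acid, Aldh1a2, averaged 0 CPM in controls and 0.0798 CPM in SOX4KO lines, so none of these 3 enzymes had more than 13 reads in any line.

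Dhrs3 (chr4:144892827-144928209), which turns retinaldehyde back into retinol, had 284 and 323 reads in WT1 and WT3 and 460, 440 and 599 reads in H7, M4 and H4. In CPM it stood at 73.5 and 64.3 in controls and at 120, 158 and 143 in SOX4KO lines. Every SOX4KO line was above both controls. The mean rose from 68.9 ± 6.5 CPM (SD, n = 2) to 141 ± 19 CPM (SD, n = 3), with a log2 fold change of 1.03 (SE 0.19).

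Of the 3 receptors, Rara (chr11:98927818-98974942) had 291 and 407 reads in WT1 and WT3 and 168, 116 and 217 reads in H7, M4 and H4. Its level was 75.3 and 81.1 CPM in controls and 43.8, 41.8 and 52.0 CPM in SOX4KO lines. All SOX4KO lines were below both controls, and the log2 fold change was -0.77 (SE 0.18). Without WT1 or without WT3 neither Dhrs3 nor Rara was called (log2 fold changes 1.13 and 0.93 for Dhrs3, -0.82 and -0.71 for Rara), and without H7 Rara was not (-0.74).

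Rarb (chr14:16430839-16819156) had 0 reads in both control lines and 22, 1 and 13 reads in H7, M4 and H4. Its level was thus 5.74, 0.360 and 3.11 CPM in the SOX4KO lines, with M4 within the range that a count of 0 allows for a single line. Against a floor of 3 reads over the control lines together (0.338 CPM), the mean of 3.07 CPM was at least 9.09-fold higher. This bound was 5.14-fold without H7, 5.14-fold without WT1 and 3.95-fold without WT3, and Rarb had too few reads to be fitted without H7 or without H4. The Rarb annotation shares 2020 exon bases with genes on the opposite strand, Top2b and Gm48162, and the strand setting of the counting is not given in the sources used here. Top2b had 798 and 1061 reads in controls and 857, 424 and 740 reads in SOX4KO lines, and its log2 fold change was -0.18 (SE 0.20). Whether Top2b reads were counted as Rarb was not tested.

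Rarg (chr15:102234938-102257517), known as the receptor of epithelia such as skin, had 296 and 391 reads in controls and 380, 286 and 360 reads in H7, M4 and H4. The control lines were nearly level at 76.6 and 77.9 CPM. The SOX4KO lines lay above them at 99.1, 103 and 86.2 CPM, with a log2 fold change of 0.31 (SE 0.17). Of the receptors, one was thus lower in all SOX4KO lines, one was higher in all of them by a small margin, and one was detected only in them.

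Per kilobase of exon, the order of the 9 genes in control lines was Dhrs3 (23.5 ± 2.2 RPKM, which is CPM divided by the length of all exons in kilobases), Rarg (18.1 ± 0.2), Rara (17.9 ± 0.9), Crabp2 (11.2 ± 3.3) and then Aldh1a3 (0.537 ± 0.271), with the others under 0.1 RPKM (SD, n = 2 throughout). Rarg and Rara did not differ beyond the spread of the lines. In SOX4KO lines the order was Dhrs3 (48.0 ± 6.6 RPKM), Rarg (22.6 ± 2.1), Crabp2 (17.3 ± 15.7), Rara (10.5 ± 1.2) and Rarb (0.583 ± 0.511), all with SD over 3 lines. The place of Crabp2 in it was within its spread of Rarg and of Rara. Rara thus stood level with Rarg in controls and below it in every SOX4KO line. Dhrs3, Rarg and Rara were each more than 10-fold above Aldh1a3 per kilobase in both groups.

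Beyond the 9 genes, 59 further genes of the pathway are reported here, grouped by role. Of these, 45 had a read and 30 had enough reads for the test, of which edgeR called 0 higher and 1 lower, with 5 at an unadjusted p under 0.05, and DESeq2 called 1 higher and 2 lower. Of all genes tested edgeR called 6.27% and DESeq2 8.55% (5.79% higher and 2.76% lower). An unadjusted p under 0.05 (edgeR) was found for 2113 of all 11682 genes tested, so nothing is read from the 5. The median log2 fold change was 0.006, with 0.009 over all genes tested. The lines of the groups did not overlap for 11 of the 30 (4 higher and 7 lower), which is near the share of all genes tested (36.9%).

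**Figure D2:**
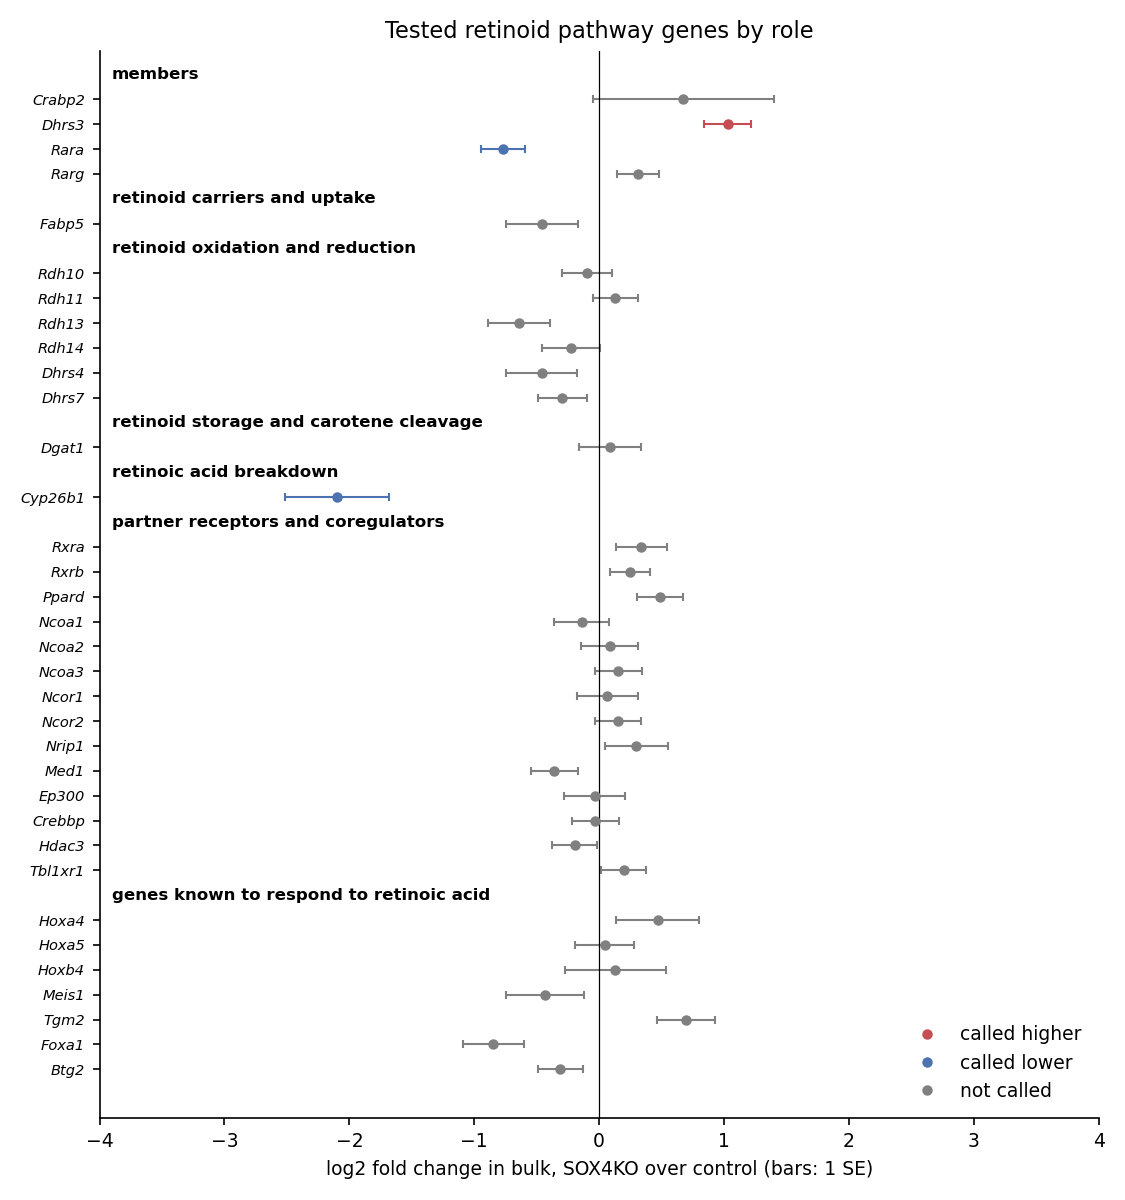
Log2 fold change in bulk RNA (x axis, SOX4KO over control, bars 1 SE) of the retinoid pathway genes that could be fitted, grouped by role (y axis), with genes called higher in red, called lower in blue and those not called in grey. Rarb is left out because its controls had no read; Cyp26b1 at -2.10 lies farthest from 0.

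Fabp5, which can also carry retinoic acid, was the only one of 6 genes of carriers and uptake reported here with enough reads, and its log2 fold change was -0.46 (SE 0.29, edgeR adjusted p = 0.47).

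Of 3 enzymes that break retinoic acid down, Cyp26b1 fell in SOX4KO lines. Its level was 158 and 80.5 CPM in WT1 and WT3 and 41.2, 13.7 and 27.3 CPM in H7, M4 and H4. The groups did not overlap, although the control lines lay farther apart in CPM than the SOX4KO lines did, and the log2 fold change was -2.10 (SE 0.42, edgeR adjusted p = 0.041). Without WT1 Cyp26b1 was no longer called (log2 fold change -1.54, edgeR adjusted p = 0.24). Cyp26c1 had no reads, and Cyp26a1, whose promoter is shown above, averaged 0.528 CPM in controls and 0.240 CPM in SOX4KO lines. Of 3 well-known targets of retinoic acid receptors, Dhrs3 was higher, Rarb was found only in SOX4KO lines at a low level, and Cyp26a1 was barely detected in either group. The wider list of genes known to respond to retinoic acid, given below, showed no common direction. Of its 7 fitted genes, 4 had a log2 fold change above 0 and 3 below, with a median of 0.04.

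None of the 6 fitted genes of retinoid oxidation and reduction was called, with log2 fold changes from -0.64 (Rdh13) to 0.13 (Rdh11). Of them 1 had an unadjusted p under 0.05 (edgeR), as did 2113 of all 11682 genes tested. Rdh10, the main enzyme that oxidizes retinol in embryos, was at 45.4 CPM in controls and 42.6 CPM in SOX4KO lines. Of storage genes Dgat1 could be fitted, with a log2 fold change of 0.09 (SE 0.25), and Lrat, which stores retinol as esters, had no reads. None of the 14 fitted partner receptors and coregulators was called, with log2 fold changes from -0.36 to 0.49. Rxra, the partner of the retinoic acid receptors, had the highest mean of them, at 374 CPM in controls and 473 CPM in SOX4KO lines (log2 fold change 0.34, SE 0.21). Ncor1 was above Rxra in WT1 (352 against 349 CPM) and in H7 (425 against 383 CPM).

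Among 12 genes known to respond to retinoic acid, 7 could be fitted and none was called by edgeR. An unadjusted p under 0.05, found for 2113 of all 11682 genes tested, was found for 2 of the 7. Those were Tgm2, a transglutaminase (274 CPM in controls and 444 CPM in SOX4KO lines; log2 fold change 0.69, SE 0.23, edgeR adjusted p = 0.16), and Foxa1, a pioneer factor of luminal cells (142 and 78.7 CPM; -0.85, SE 0.24, edgeR adjusted p = 0.11). With DESeq2 both were called (adjusted p = 0.058 for Tgm2 and 0.041 for Foxa1). Of the Hox genes, which are ordered targets of retinoic acid in the embryo, Hoxa4, Hoxa5 and Hoxb4 could be fitted, and their log2 fold changes ran from 0.04 to 0.47 with none called.

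In single cells the comparison has 1 control library, so no test was made and the intervals (95%, exact Poisson) cover counting error only. Summed over wells, Crabp2 and Dhrs3 were higher in both SOX4KO libraries than in GR17, and so was Rara, whose bulk difference had the other sign. Rarb was found almost only in GR19, and Rarg was higher in GR18 and lower in GR19. Dhrs3, Rara and Rarg averaged 20 CPM or more over the 3 libraries, and none of these 3 was at least 2-fold from the control in the same direction in both SOX4KO libraries, where 2.24% of 6303 genes were.

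**Figure D3:**
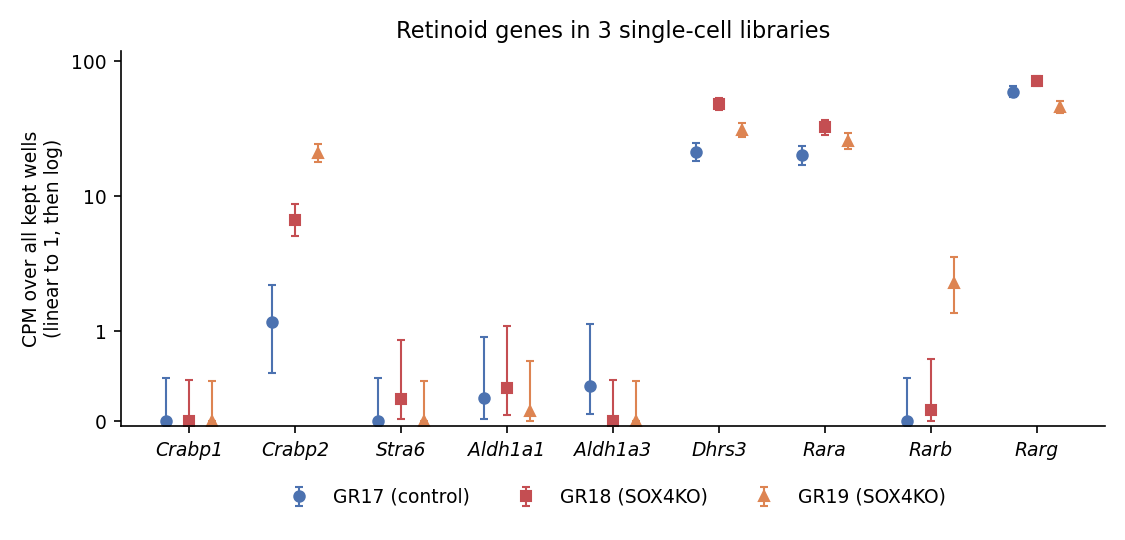
CPM of the 9 genes summed over the kept wells of each single-cell library, on an axis that is linear up to 1 and logarithmic above, with exact Poisson intervals (95%) as bars. Crabp2 steps from 1.17 CPM in GR17 to 6.74 in GR18 and 21.0 in GR19, while Crabp1, Stra6, Aldh1a1 and Aldh1a3 stay under 0.4 CPM in all 3 libraries.

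Crabp2 had 9 UMIs in GR17 (1.17 CPM, interval 0.533 to 2.21), 54 in GR18 (6.74 CPM, 5.06 to 8.80) and 174 in GR19 (21.0 CPM, 18.0 to 24.3). The intervals of the 3 libraries did not overlap. The ratio to GR17 was 5.78 (2.83 to 13.3) for GR18 and 18.0 (9.25 to 39.97) for GR19. The share of wells with a Crabp2 UMI was 2.17%, 8.67% and 22.4%, and after each well was thinned to 5000 UMIs it was 0.831%, 2.74% and 9.22%. No well held more than 9 Crabp2 UMIs. As in bulk, the SOX4KO samples also differed from each other, with GR19 well above GR18.

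Dhrs3 had 166, 390 and 258 UMIs in GR17, GR18 and GR19, which is 21.5 CPM (18.4 to 25.1), 48.7 CPM (44.0 to 53.8) and 31.1 CPM (27.4 to 35.1). Both SOX4KO libraries were above the control, and GR18 was above GR19. The ratio was 2.26 (1.88 to 2.73) for GR18 and 1.45 (1.18 to 1.77) for GR19. A UMI was seen in 31.7%, 53.9% and 43.6% of wells, and after thinning in 12.47%, 24.38% and 15.36%.

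Rara had 156, 260 and 214 UMIs, or 20.2 CPM (17.2 to 23.7) in GR17, 32.5 CPM (28.6 to 36.7) in GR18 and 25.8 CPM (22.5 to 29.5) in GR19. The ratio was 1.61 (1.31 to 1.97) for GR18 and 1.28 (1.03 to 1.58) for GR19. Both are above 1, whereas in bulk all 3 SOX4KO lines were below both control lines. Rarg had 462, 576 and 379 UMIs, or 59.9, 71.9 and 45.7 CPM, with GR18 above the control (ratio 1.20, 1.06 to 1.36) and GR19 below it (0.763, 0.664 to 0.876).

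Rarb had no UMI in GR17, 1 in GR18 and 19 in GR19. The 19 UMIs came from 16 wells (4.42% of wells, exact binomial interval 2.55% to 7.08%), and the level of 2.29 CPM was at least 5.89-fold above the floor of 3 UMIs in GR17. None of the 369 control wells had a Rarb UMI, which allows a share of wells with a UMI of up to 0.813% (3 counts; the exact binomial bound is 0.995%) and does not limit the share of cells that express the gene, since no well of any library held more than 2 Rarb UMIs. After thinning, 2 wells of GR19 and none of GR17 or GR18 kept a UMI. In both assays Rarb was not detected in the control at this depth and was uneven among SOX4KO samples. Stra6 had 2 UMIs in all, both in GR18. Aldh1a1 had 2, 3 and 1 UMIs and Aldh1a3 had 3, 0 and 0, so neither synthesis enzyme was detected above a few molecules in any library.

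**Figure D4:**
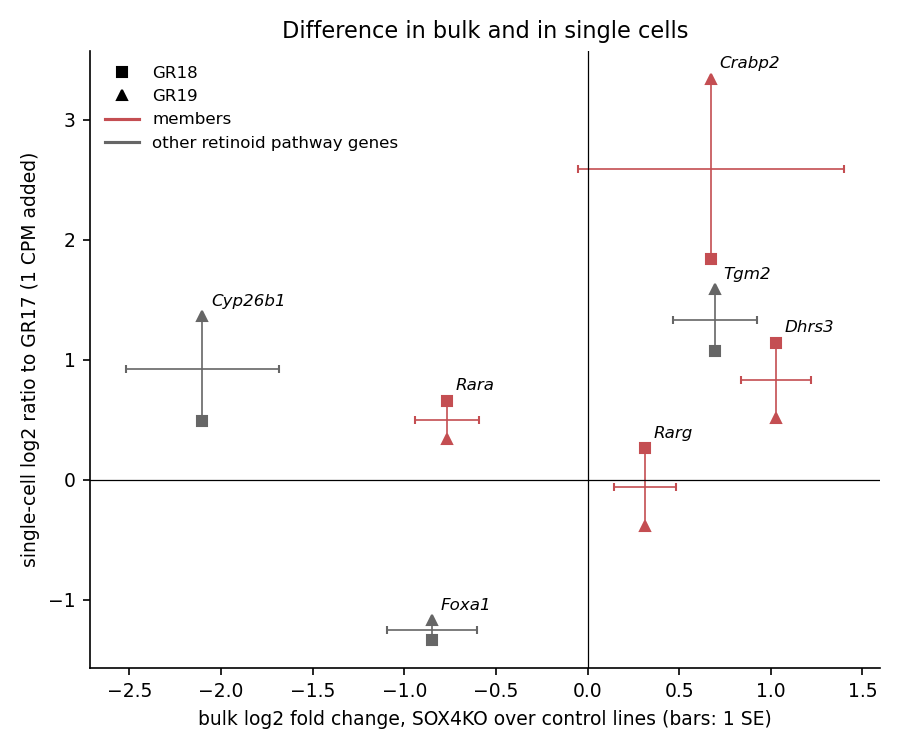
Bulk log2 fold change (x axis, bars 1 SE) against the log2 ratio of each SOX4KO single-cell library to GR17 after adding 1 CPM (y axis, squares GR18 and triangles GR19), for 4 of the 9 genes (members) in red and other pathway genes in grey. Dhrs3, Crabp2 and Tgm2 lie above 0 on both axes and Foxa1 below 0 on both, while Rara and Cyp26b1 are below 0 in bulk and above 0 in single cells.

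Cyp26b1, the other pathway gene called lower in bulk, had 17, 28 and 60 UMIs, or 2.20, 3.50 and 7.23 CPM, with ratios of 1.59 (0.838 to 3.09) and 3.28 (1.89 to 6.0). The interval of GR18 covers 1, so only GR19 was above the control beyond counting error, whereas bulk lines were lower. The 17 UMIs of GR17 came from 7 wells, with 9 in a single well, and 12 of the 17 lay in 3 wells of the same cluster (B, described below). Of the UMIs of GR18 and GR19, 17 of 28 and 46 of 60 lay in B, in 8 and 15 wells. Cluster B held 9 wells of GR17, 109 of GR18 and 96 of GR19, and its part in the ratios was not tested. Tgm2 and Foxa1 went the way they did in bulk: the log2 ratios to GR17 were 1.07 and 1.59 for Tgm2 and -1.34 and -1.17 for Foxa1. They were the only genes of the 22 other pathway genes reported here with at least 20 CPM that were past 2-fold in both libraries.

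Wells were grouped into 6 clusters without using any retinoid gene among the variable genes. Clusters are given by letter and leading genes, since a cluster made mostly of 1 library may be that library and not a cell type. Cluster A held 333 of the 369 GR17 wells (led by Krt17, Tuba1a and Aldh3a1). The SOX4KO wells spread over B (109 and 96 wells of GR18 and GR19; Postn and Calml3), C (86 and 76; Slc7a1 and Chpf), D (44 and 78; Cd209c, Cxcl2 and Csf3), E (63 and 54; Wfdc18, Btg2 and Atp6v1b1) and F (56 and 52; Arhgef39, Aspm and Cdkn2d). B had the highest median of the basal markers and E of the luminal markers, and both had the lowest medians of the cycling markers (-1.43 in B and -1.35 in E, as log2 differences from the mean of the clusters). Since A held few SOX4KO wells, and B to F held 0 to 14 GR17 wells each, genotypes cannot be compared within a cluster.

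**Figure D5:**
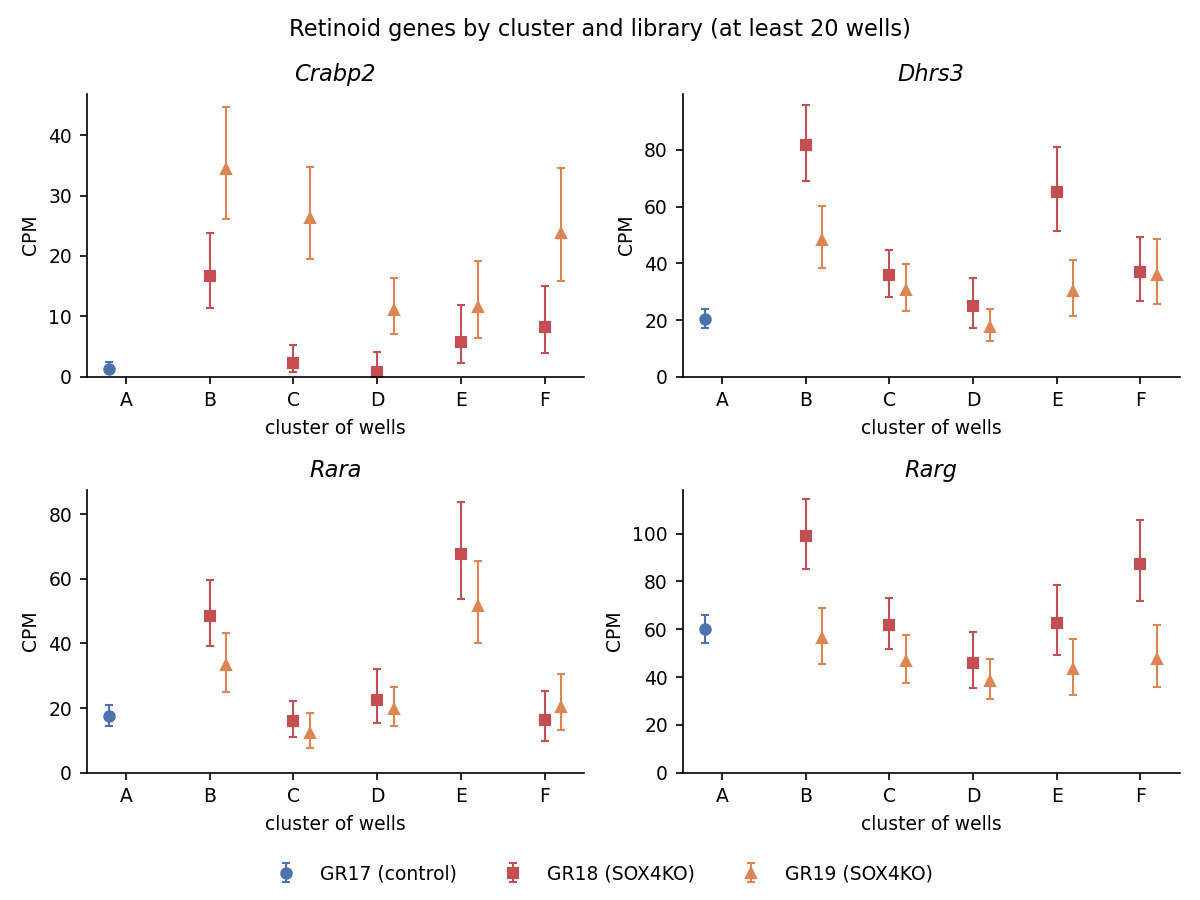
CPM of Crabp2, Dhrs3, Rara and Rarg (y axes) by cluster of wells (x axes) and library, for clusters with at least 20 wells of that library, with exact Poisson intervals (95%) as bars. Crabp2, Dhrs3 and Rarg are highest in cluster B in both SOX4KO libraries, and Rara is highest in cluster E and next in B.

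Crabp2 was highest in cluster B in both SOX4KO libraries, at 16.7 CPM (11.4 to 23.8) in GR18 and 34.5 CPM (26.1 to 44.6) in GR19. In GR18 the other clusters stood at 0.731 to 8.18 CPM, and the intervals of F (3.92 to 15.0) and E (2.32 to 11.9) overlapped with that of B. In GR19 clusters C (26.3 CPM, 19.5 to 34.8) and F (23.9 CPM, 15.9 to 34.5) overlapped with B, while D and E were at 11.04 and 11.57 CPM. Within every cluster from B to F the point value was higher in GR19 than in GR18, so the difference between the SOX4KO libraries was not that of a single cluster.

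Dhrs3 was also highest in B, at 81.6 CPM (69.1 to 95.7) in GR18 and 48.4 CPM (38.3 to 60.2) in GR19. In GR18 the interval of E (65.1 CPM, 51.5 to 81.1) overlapped with that of B, and in GR19 those of F (35.8 CPM, 25.8 to 48.4), C (30.6 CPM, 23.2 to 39.7) and E (30.1 CPM, 21.4 to 41.1) did. The point value was lowest in D, at 24.9 CPM (17.2 to 34.7) and 17.7 CPM (12.6 to 24.1), and in both libraries the interval of D lay below that of B. Cluster A of GR17 had 20.4 CPM (17.20 to 24.04), near the level of D.

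Rara was highest in E, at 67.5 CPM (53.7 to 83.8) in GR18 and 51.7 CPM (40.1 to 65.7) in GR19, and next in B, at 48.6 CPM (39.1 to 59.8) and 33.3 CPM (25.0 to 43.3), with overlapping intervals in both libraries. The other SOX4KO clusters were at 12.3 to 22.7 CPM, and cluster A of GR17 at 17.6 CPM (14.6 to 20.9). Rara was thus higher in the clusters with the lowest cycling markers, while Rarg varied less, from 46.1 to 98.9 CPM in GR18 and from 38.4 to 56.2 CPM in GR19. The highest point value of Rarg was in B in both libraries, with an interval that overlapped with that of F. Rarb UMIs of GR19 fell in B (7), D (6), C (3) and E (3), with none in F.

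Across the wells of each library, the correlations of the 9 genes with the means of marker lists were weak, and wells of a library share a plate and its range of depth. Rara had a Pearson r of -0.16, -0.35 and -0.26 with the mean of the cycling markers in GR17, GR18 and GR19 (369, 369 and 362 wells), and of -0.06, -0.16 and -0.19 after thinning to 5000 UMIs. Rarg had r of 0.26, 0.21 and 0.15 with the basal markers, and of 0.08, 0.14 and 0.12 after thinning. Dhrs3 had r of -0.12, -0.31 and -0.18 with the cycling markers, and of -0.15, -0.24 and -0.08 after thinning. With the basal markers its r was -0.04, 0.15 and 0.21, and -0.12, 0.05 and 0.14 after thinning, so the sign differed between libraries. Crabp2, seen in enough wells only in GR19, had r of 0.03 with the basal and of -0.07 with the luminal markers.

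Only Dhrs3, Rara and Rarg had a UMI in at least 20% of the wells of every library, and for these the most similar genes were sought among 7245 genes. For Dhrs3 they were Itm2b, Car12 and Cst3, with a mean r over the libraries of 0.30, 0.27 and 0.27. For Rara they were Bsg, Aldoc and Ndrg1 (0.31, 0.30 and 0.28). For Rarg they were the basal keratin Krt14, Cic and Sparc (0.20, 0.19 and 0.17). After thinning these 9 values lay between 0.07 and 0.16, so the order rests on the deeper counts.

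The sums of several marker lists also differed between the bulk groups. Cycling markers summed to 726 to 740 CPM in control lines and 331 to 514 CPM in SOX4KO lines. Of 13, 6 were called lower, where 2.17% of all genes tested were. Basal markers summed to 1309 to 2067 CPM in controls and 2485 to 6962 CPM in SOX4KO lines, and Sparc made up 5342 of the 6962 CPM of M4. Of 9 fitted, 4 were called higher, where 4.1% of all genes tested were. Luminal markers summed to 5495 to 5523 CPM in controls, 5863 and 5910 CPM in H7 and M4, and 10882 CPM in H4. Of the 13 fitted, 9 had a log2 fold change below 0 and none was called. The small excess of H7 and M4 depends on TMM scaling (factors 1.06 and 1.08 in WT1 and WT3, 0.913 to 0.984 in SOX4KO lines). In single cells, 4 of 7 basal and 9 of 11 luminal markers averaging at least 20 CPM were higher in both SOX4KO libraries. Lower in both were 2 of these basal, 1 luminal and 11 of 13 cycling markers. Fibroblast markers summed to 201 to 315 CPM in controls and 130 to 142 CPM in SOX4KO lines, mostly from Col1a1 and Pdgfra. Of the 4 fitted, 2 were above 0 (Pdgfrb 1.41 and Dcn 0.61, log2, neither called). The other 2 were below 0 (Col1a1 -1.39, called lower, and Pdgfra -0.55, not called). Thy1 of the same list had no read, while Col1a1, Pdgfra, Pdgfrb and Dcn had reads in every line. Immune markers summed to 1.59 to 1.81 CPM in controls and 2.16 to 14.4 CPM in SOX4KO lines, nearly all of it Cd68. The part of all these markers in the differences of the retinoid genes was not tested.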

How the data were processed

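For bulk RNA the authors deposited raw read counts per Ensembl gene, made with HTSeq, and for single cells UMI counts per gene and well; neither had been normalized. The submitters' processing notes name STAR 2.4.2a and the builds NCBIM37 and mm9. Positions here are GRCm38 (GENCODE), matched by gene identifier. Rows that name no gene were left out (reads on genes were 16.1% to 28.4% of the total, and 45.7% to 53.0% were not unique). The edgeR quasi-likelihood test (version 4.0.16) was run over the 11682 genes that filterByExpr kept, after TMM scaling, with genes called at a Benjamini-Hochberg adjusted p under 0.1. The SE is the size of the log2 fold change over the square root of F. DESeq2 1.42.0 was the alternative. The labels do not say that lines came from separate animals, so p-values measure the spread between clones. Intervals and floors (3 counts) cover counting error only.

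Wells with at least 1000 UMIs were kept, without spike-ins; those left out (15 to 22 a library) held at most 1 UMI of the 9 genes. No doublet caller was run; 8 to 20 wells a library had over 2 times the median UMIs. Well numbers recur between plates (348 kept in all 3 libraries). Clusters came from Seurat 5.3.0 (2000 variable genes, 10 components, 20 neighbours, resolution 0.5), with no value used below 20 wells; leading genes have the largest excess over the next highest cluster. The 9 genes and all lists were chosen with earlier results of these data known. Named were the 9 genes, called genes of the other lists, and the 3 best-correlated genes of each member with a UMI in at least 20% of wells of every library; other genes were named for their role or after their values were seen. Some genes of the lists, and a leading gene of a cluster, are not reported here and enter no count of a list, though they stayed in the fit over all genes. The calls of edgeR and DESeq2 and the single-cell count of genes past 2-fold were tested on simulated data, and the other steps were not.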

Additional observations from a re-analysis of the deposited data

Results flagged for a closer look

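Rara and Cyp26b1 were lower in all 3 SOX4KO lines than in both control lines in bulk RNA, while in single cells their point values were higher in both SOX4KO libraries than in the control library. For Cyp26b1 the counting interval of the GR18 ratio covered 1 (0.838 to 3.09), the control level rested on 17 UMIs in 7 wells (9 UMIs in a single well), and the mean log2 ratio was 0.32 when 10 CPM were added in place of 1. Most Cyp26b1 UMIs of each library lay in cluster B, which held 9 wells of GR17, 109 of GR18 and 96 of GR19. The part of these well numbers in the ratios was not tested. The mean log2 ratio of the SOX4KO libraries to GR17 was 0.50 for Rara and 0.93 for Cyp26b1, against bulk log2 fold changes of -0.77 and -2.10. The difference between the assays was not tested, since single cells had 1 control library. The labels do not say whether the assays share clones, so clone and assay cannot be told apart.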

How the results depend on the processing

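Over all genes, 479 were called higher and 254 lower, and of the other pathway genes 0 and 1. At an adjusted p under 0.05 these were 241 and 113 over all genes, and Rara (edgeR adjusted p = 0.058) was no longer called. With DESeq2, 676 and 323 were called over all genes, and 1 other pathway gene was called higher (Tgm2) and 2 lower (with Foxa1). With all genes of at least 1 count, 1008 and 678 were called over all genes and 1 and 2 of the other pathway genes. Leaving out 1 line at a time gave 30 to 624 higher and 26 to 382 lower calls over all genes (30 and 26 without WT3, 93 and 37 without WT1, 624 and 382 without M4), and 0 to 1 higher and 0 to 2 lower of the other pathway genes (0 lower without WT1, 1 higher and 2 lower without M4, 2 lower without H4). Where 1 control line was left, its spread was taken to be that of the remaining lines. The cause was not tested.

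Crabp2 ran from -0.24 (without H4) to 1.15 (without M4) on the log2 scale when 1 line was left out, and over its 8 alternatives the adjusted p ran from 0.17 to 0.98. Dhrs3 kept its direction under 8 of 8 alternatives and was called in 6, and Rara under 8 of 8 and was called in 5. Rarb could not be fitted without H7 or without H4, and was called with DESeq2, with all genes of at least 1 count, and without M4. In single cells the mean log2 ratio of Crabp2 moved from 2.59 to 1.03 when 10 CPM were added in place of 1. It alone moved beyond the spread of the SOX4KO libraries, and 35 of the 36 values stayed within it. That count says little about stability, since a mean without 1 SOX4KO library cannot leave this spread. Wide spreads also hid large moves: with 10 CPM added, Rarb went from 0.94 to 0.16 and Cyp26b1 from 0.93 to 0.32. Leaving out wells over 2 times the median was among the alternatives, a choice made after seeing the data. The fold bound of Rarb without single lines and the correlations with the cycling markers were also added then. Of 60 values for correlations, 12 moved beyond the spread of the libraries, and 48 did not. All 12 were with thinning to 5000 UMIs, where r of Rara with the luminal markers in GR17 went from 0.13 to -0.05. Keeping only wells with at least 2000 UMIs left the correlations nearly unchanged, so its part of the 48 says little about stability. The order per kilobase was the same with other gene lengths. Members with under 10 reads a line are limited by depth.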
